A study of Homo sapiens with 4 samples.

Results

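The genes examined were those of 10 SR splicing factors (SRSF1 to SRSF7, SRSF9, SRSF10 and SRSF11), taken by symbol from a table of 51740 gene entries. All 10 were among the 23333 genes with an adjusted p-value, so none was lost to a filter on low values. RNA came from wild-type HEK293T cells, an immortal line grown from human embryonic kidney and expressing SV40 large T antigen. The cells were crosslinked with formaldehyde in both groups and then split into nuclei and cytoplasm, with 2 libraries (biological replicates) of each fraction. Libraries were prepared with a stranded kit after ribosomal RNA depletion, from 400 ng of RNA in each case. Because the input was equal, fewer cells or less RNA per cell cannot be told apart in these values. A fold change here compares levels within the RNA of each fraction. It does not say in which compartment most molecules of a gene lay.

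SR proteins carry an RNA recognition motif and a domain rich in arginine and serine. They bind exonic enhancers in pre-mRNA and help the spliceosome to choose splice sites, and several of them also travel with the mRNA to the cytoplasm. Many SR genes hold a poison exon, which brings an early stop codon into the mRNA and sends it to nonsense-mediated decay, and many transcripts of the family keep introns and stay in the nucleus. SR proteins can act on their own pre-mRNA in this way to hold their level steady.

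In GENCODE 44 on hg38, each of the 10 genes had at least 1 transcript marked as a target of nonsense-mediated decay (NMD), and 9 had at least 1 marked as retaining an intron, SRSF6 being the exception. Among the 12134 protein-coding genes whose mean normalized count exceeded 50, the shares were 48.5% and 61.2%. The genes were chosen for this property, so these counts are a description. A cassette exon, that is an exon lying inside an intron of the MANE Select transcript (the reference transcript shared by GENCODE and RefSeq) holding the annotated stop of an NMD transcript and overlapping no exon of a protein-coding transcript, was found in 6 of the 10 genes. SRSF7 and SRSF11 had 3 such exons each, SRSF3 had 2, and SRSF4, SRSF6 and SRSF9 had 1 each. In SRSF7, 2 of the 3 overlap in intron 3 and share their 3′ end, so they are forms of 1 exon. No exon met this definition in SRSF1, SRSF2, SRSF5 or SRSF10. How their NMD transcripts arise was not examined, and poison exons outside this narrow definition would not be counted. The longest such exon of each gene is shown from its first base to its stop codon, which stands in capitals, because this stretch is what turns the reading frame into an early stop.
SRSF9, 90-base exon in intron 2, chr12:120464733-120464822, minus strand: aaaactatTAG
SRSF3, 456-base exon in intron 3, chr6:36599821-36600276, plus strand: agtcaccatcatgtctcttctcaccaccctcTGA
SRSF7, 449-base exon in intron 3, chr2:38748898-38749346, minus strand: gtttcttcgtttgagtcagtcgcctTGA
SRSF6, 268-base exon in intron 2, chr20:43459153-43459420, plus strand: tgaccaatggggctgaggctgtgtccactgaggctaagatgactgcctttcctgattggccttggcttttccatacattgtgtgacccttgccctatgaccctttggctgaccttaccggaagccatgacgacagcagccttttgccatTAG
SRSF4, 175-base exon in intron 1, chr1:29165890-29166064, minus strand: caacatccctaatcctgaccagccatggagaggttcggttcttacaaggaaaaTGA
SRSF11, 117-base exon in intron 2, chr1:70231859-70231975, plus strand: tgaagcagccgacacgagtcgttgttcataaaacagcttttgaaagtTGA
The sequences were read 5′ to 3′ on the gene's strand of hg38. Counted with the stop codon, the frame ran for 11 bases into the SRSF9 exon and for 152 bases into the SRSF6 exon.

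Reads on exons and introns were counted together, so spliced mRNA, unspliced RNA and transcripts with a poison exon all add to 1 value per gene. The table pools the 4 libraries, and no value per sample can be shown. The means of each fraction given here were computed from the deposited mean over all libraries and the deposited log2 fold change (cytoplasmic over nuclear, from DESeq2). Implied library totals were between 21567518 and 24481503 counts, under the assumption that both libraries of a fraction had the same normalized sum, and a member of the family held between 1074 and 9151 counts in a library. The markers of the fractions differed in the direction of their labels: MALAT1 and NEAT1, long noncoding RNAs of nuclear bodies, had log2 fold changes of -3.47 and -3.09, and the mRNAs of GAPDH and ACTB had 3.78 and 2.68. With the size factors of DESeq2, the median log2 fold change of all tested genes was -0.12. On that scaling the normalized counts summed to 18136040 in nuclear and 28705052 in cytoplasmic RNA, so equal normalized counts are not equal shares of a fraction. Scaling every library to the same total moved each log2 fold change down by 0.66, and values on that scale are named "at equal totals".

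To ask in which fraction the RNA of each SR gene was enriched, the fractions were compared gene by gene. The RNAs of 7 SR genes (SRSF9, SRSF3, SRSF2, SRSF7, SRSF1, SRSF6 and SRSF10) were higher in the cytoplasmic fraction with a DESeq2 adjusted p-value no higher than 0.01, and those of SRSF4 and SRSF11 were higher in the nuclear fraction. SRSF5 did not pass. Of all tested genes, 25.9% were called cytoplasmic and 26.5% nuclear, and of 15336 tested protein-coding genes 35.6% and 28.4%. At equal totals the split was 5 cytoplasmic and 3 nuclear, where 16.2% of all tested genes were cytoplasmic and 38.3% nuclear, and 22.4% and 42.6% of the protein-coding ones. The family spread over 3.82 log2 units from SRSF9 to SRSF11, with standard errors of 0.12 to 0.15 against a median of 0.29 for all tested genes. Their mean normalized counts lay between the percentiles 79.0 (SRSF5) and 98.2 (SRSF1) of the protein-coding genes. The shares of called genes were not matched for count, and a smaller standard error makes a call easier. The median log2 fold change of the 10 genes was 0.87, against -0.12 for all tested genes and 0.11 for the protein-coding ones.

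**Figure D1:**
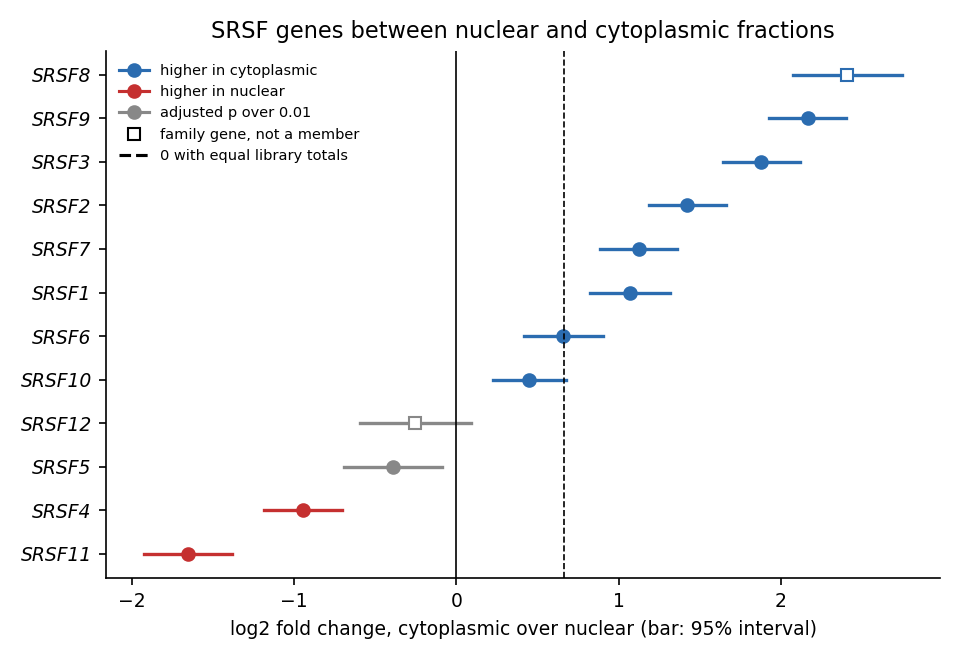
Log2 fold change (cytoplasmic over nuclear) of the SR genes with bars for the 95% interval from the deposited standard error, and of the other family genes SRSF8 and SRSF12. The solid vertical line is 0 and the dashed line is where 0 falls at equal totals (0.66). SRSF9 stands highest of the 10 at 2.16, SRSF11 lowest at -1.65, and SRSF6 lies on the dashed line.

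SRSF9 is a short SR protein that takes part in constitutive and alternative splicing. Its RNA had a mean of 903 normalized counts in nuclear and 4047 in cytoplasmic RNA. This 4.48-fold difference (log2 fold change 2.16, SE 0.12, DESeq2 adjusted p = 1.2e-68) was the largest cytoplasmic one of the 10. SRSF3, the smallest SR protein, binds the export receptor NXF1 and couples splicing to mRNA export. Its mean was 2142 in nuclear and 7879 in cytoplasmic RNA, 3.68-fold higher (log2 fold change 1.88, SE 0.12, DESeq2 adjusted p = 2.83e-53). The difference between SRSF9 and SRSF3 was 0.29 log2 units, with a 95% interval of -0.05 to 0.62, so their order was within the error.

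SRSF2, also known as SC35, marks nuclear speckles and is an SR protein that stays mainly in the nucleus. Its RNA had a mean of 2910.0 in nuclear and 7811 in cytoplasmic RNA (log2 fold change 1.42, SE 0.12, DESeq2 adjusted p = 1.5e-30). SRSF7 is close in sequence to SRSF3, has an added zinc knuckle and also binds NXF1. Its mean was 1936 in nuclear and 4222 in cytoplasmic RNA, 2.18-fold higher (log2 fold change 1.13, SE 0.12, DESeq2 adjusted p = 9.57e-20). SRSF1, the founding SR protein and a shuttling splicing factor, was 2.10-fold higher in the cytoplasmic fraction, with means of 5109 and 10729.6 (log2 fold change 1.07, SE 0.13, DESeq2 adjusted p = 7.25e-17). SRSF7 and SRSF1 could not be ordered, their difference being 0.05 with a 95% interval of -0.29 to 0.40, nor could SRSF2 and SRSF7, at 0.30 with an interval of -0.04 to 0.64. All 5 of these genes were also called cytoplasmic at equal totals, SRSF1 with the highest adjusted p of them (0.00233).

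SRSF6 and SRSF10 had the smallest cytoplasmic differences. SRSF6, a regulator of alternative exons, had a mean of 1582 in nuclear and 2500.4 in cytoplasmic RNA (log2 fold change 0.66, SE 0.12, DESeq2 adjusted p = 2.41e-07). SRSF10, which acts as a splicing repressor once it is dephosphorylated, had 2327 and 3179 (log2 fold change 0.45, SE 0.12, DESeq2 adjusted p = 0.000232). Their difference of 0.21 had an interval of -0.12 to 0.54. Both calls held with values centred on the protein-coding median (0.55 for SRSF6 and 0.34 for SRSF10) but were lost at equal totals. There the SRSF6 value was -0.00197 (adjusted p = 0.992, from the DESeq2 standard error) and the SRSF10 value -0.21 (adjusted p = 0.101). On the DESeq2 scaling neither passed against a minimum log2 fold change of 0.5.

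SRSF5, a splicing factor that responds to insulin and serum, was the only one of the 10 without a call, with means of 1975 in nuclear and 1509 in cytoplasmic RNA (log2 fold change -0.39, SE 0.15, DESeq2 adjusted p = 0.0207). At equal totals its value was -1.05 and it was called nuclear (adjusted p = 2.62e-11). It was separated from SRSF10, its neighbour in the order, by 0.84 log2 units, the widest gap between neighbours. SRSF5 also had 8 transcripts annotated as retaining an intron, the most of the 10 genes, and 6.82% of the protein-coding genes had as many. Across the 10 genes the number of such transcripts and the log2 fold change had a Spearman's rho of 0.06, as a description over genes that share their 4 libraries. The part of retained introns in the fold changes was not tested.

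SRSF4 and SRSF11 were nuclear under both scalings. SRSF4, an SR protein with a long arginine and serine domain, had a mean of 3216 in nuclear and 1671 in cytoplasmic RNA, 1.92-fold higher in the nuclear fraction (log2 fold change -0.94, SE 0.12, DESeq2 adjusted p = 8.79e-14). SRSF11, which binds the splicing factor U2AF and is more distant from the rest of the family, had 6687 and 2126, a 3.15-fold nuclear excess (log2 fold change -1.65, SE 0.14, DESeq2 adjusted p = 2.63e-32). Its nuclear mean was the highest of the 10 and its cytoplasmic mean the third lowest. Of the 9 pairs of neighbours in the order of the 10 genes, the 95% interval of the difference spanned 0 in 4 (the pairs named with their intervals), and the steps around SRSF5, SRSF4 and SRSF11 were all wider than their error.

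**Figure D2:**
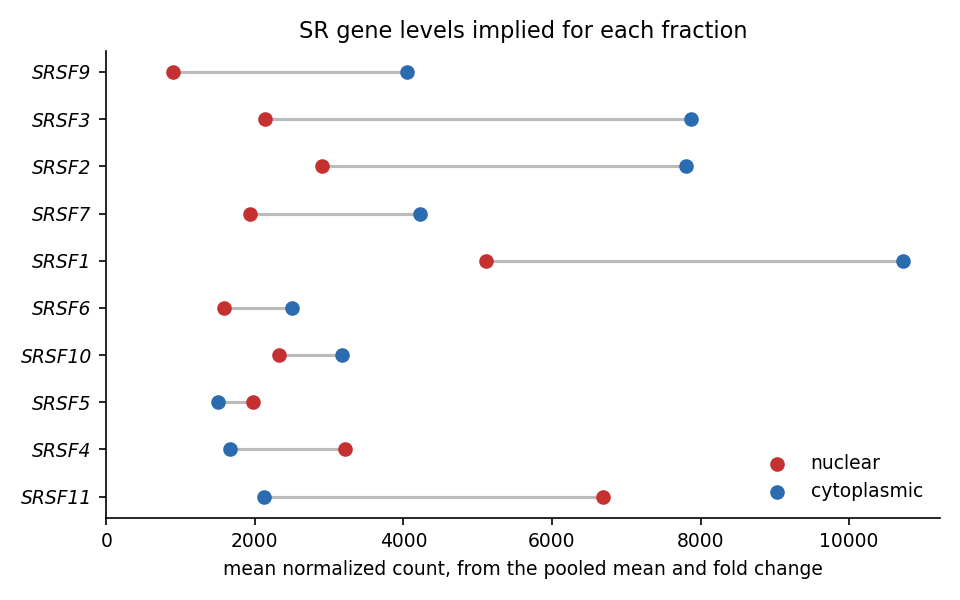
Mean normalized count of each SR gene in the nuclear and the cytoplasmic fraction on a linear axis, both computed from the deposited mean over the 4 libraries and the log2 fold change, joined by a line. SRSF1 is the highest in the cytoplasmic fraction at 10729.6, SRSF11 the highest in the nuclear fraction at 6687, and SRSF9 the lowest in the nuclear fraction at 903.

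Per kb of full annotated exonic length, SRSF2 had the highest level in both fractions, with 978 normalized counts in nuclear and 2625 in cytoplasmic RNA. SRSF1 followed in both, at 884 and 1856. SRSF4 was lowest in the cytoplasmic fraction at 190. Intronic reads are included in these levels, so they are not levels of spliced mRNA. Other genes on either strand covered 100% of the exonic bases of SRSF2 and SRSF1, 96.7% of SRSF6 and 50.2% of SRSF9. The authors took shared stretches out of the annotation, so the exonic length that was counted is not known for these genes. Their levels per kb, and the places of SRSF2 and SRSF1 at the top, are therefore uncertain.

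Because introns were counted, the order was set beside gene structure. By the span of all annotated transcripts, SRSF11 (47.4 kb), SRSF5 (45.1 kb), SRSF9 (34.3 kb) and SRSF4 (34.2 kb) were the longest of the 10 genes, so that the highest and the lowest gene of the order were both among them. This span includes any readthrough transcripts, which the authors removed before counting, so it need not be the span that was counted. Intron length was taken as this span less the exonic length and has the same limit. The total span of SRSF5, SRSF9 and SRSF11 reached well beyond their MANE Select transcript. The MANE Select transcript spans 4.86 kb in SRSF5 and 8.08 kb in SRSF9, and the longest MANE spans were those of SRSF4 (34.2 kb) and SRSF11 (31.7 kb). Intron 1 of SRSF4, which holds its annotated cassette exon with a stop codon, was 21128 bases long. Over the 10 genes, Spearman's rho with the log2 fold change was -0.50 for the total span, -0.45 for intron length, -0.65 for exonic length and -0.62 for the number of introns in the MANE transcript. It was -0.38 for the MANE span, a measure added after the data were seen. Without SRSF4 and SRSF11, rho was -0.24 for the total span and 0.19 for the MANE span. Over protein-coding genes it was -0.71 for both spans. Genes are not independent replicates, and no test was made of these correlations.

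**Figure D3:**
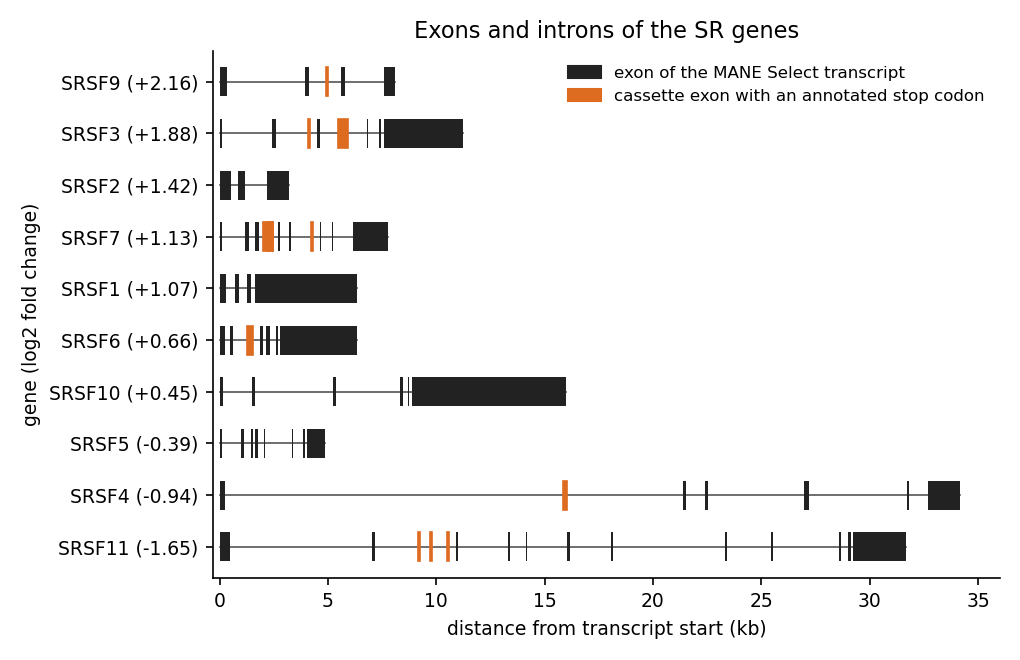
Exons (black) and introns (lines) of the MANE Select transcript of each SR gene, drawn to scale in kb from the transcript start, with cassette exons that hold an annotated stop in orange (outlined so that the shortest remain visible). Genes are in the order of their log2 fold change, from SRSF9 at the top to SRSF11, and orange exons occur at both ends of the order, with 1 in SRSF9 and 3 in SRSF11.

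Set beside protein-coding genes of like length (10 deciles of MANE span), 8 of the 10 SR genes lay below the median log2 fold change of their decile. SRSF3 and SRSF9 lay above it, at the percentiles 79.3 and 74.6. The place of SRSF5, SRSF9, SRSF1, SRSF3 and SRSF10 depended on the measure of length. By MANE span SRSF5 was the lowest placed, at the percentile 5.14 among genes with a median of 2.28, and by total span it was at 28.4 among genes with a median of 0.21. SRSF9 was at the percentile 96.4 by total span. SRSF11 was at 6.22 by MANE span and at 5.52 by total span, and the count of SR genes below their decile's median was 8 by either measure. SRSF2, whose RNA was 2.68-fold higher in the cytoplasmic fraction, was at 21.6 in the same MANE decile as SRSF5. By MANE span SRSF4 was at 15.5, SRSF6 at 24.1, SRSF1 at 34.8, SRSF7 at 36.6 and SRSF10 at 38.9. By total span SRSF1 was at 13.8, SRSF10 at 27.0 and SRSF3 at 65.1.

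**Figure D4:**
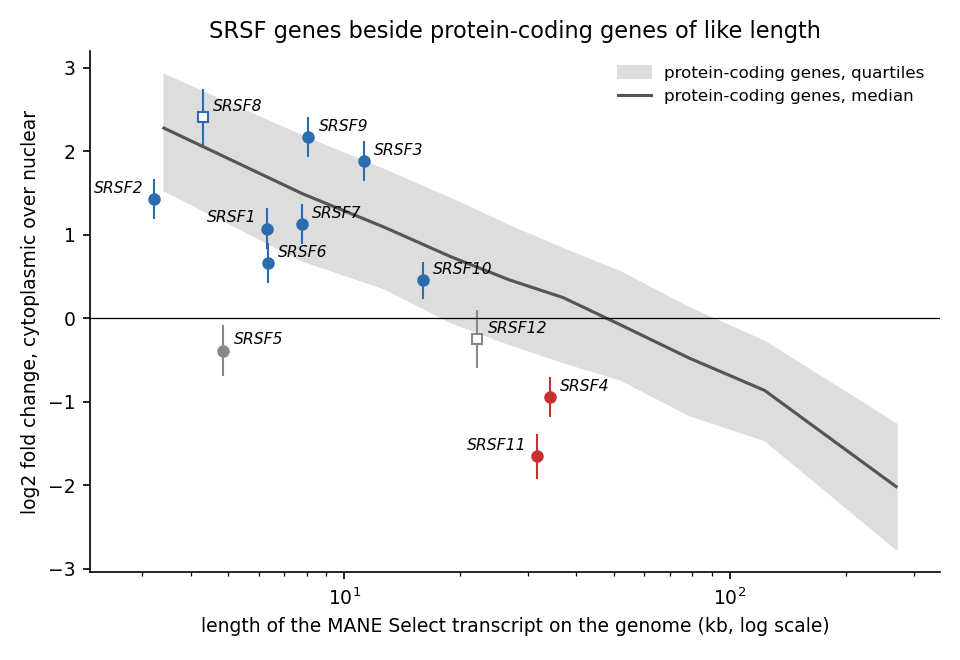
Log2 fold change of the SR genes, SRSF8 and SRSF12 against the length of the MANE Select transcript on the genome (kb, log axis), with the median of protein-coding genes in each decile of length as a line and the quartiles as a band. SRSF5 (4.86 kb, -0.39) and SRSF11 (31.7 kb, -1.65) lie farthest below the band, and SRSF4, SRSF6 and SRSF12 (22.1 kb, -0.25) also lie below it. SRSF2 (3.22 kb) lies left of its first point. SRSF9 (8.08 kb, 2.16) and SRSF3 (11.2 kb, 1.88) lie at its upper edge.

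The family has further genes outside the 10. SRSF8, a copy of SRSF2 that has no intron, had a log2 fold change of 2.41 (SE 0.17, DESeq2 adjusted p = 5.05e-44), a higher value than that of any of the 10. SRSF12, a paralogue of SRSF10, had -0.25 (SE 0.18, adjusted p = 0.213 by DESeq2). Pseudogenes named after SRSF genes took few reads: 7 of 11 were at a mean of 0, and the highest, SRSF6P2, had 2.92. Overlap with other genes is a limit for 4 of the genes. In GENCODE 44 other genes on either strand covered 100% of SRSF1 and SRSF2, 98.0% of SRSF6 and 82.2% of SRSF9. Genes on the same strand covered 98.4% of SRSF1, 98.0% of SRSF6, 23.0% of SRSF9 and 3.08% of SRSF2. Shared stretches were taken out of the annotation by the authors before counting. How strand was handled in this step and in counting is not given in the sources used here. SRSF1 and SRSF2 still had means of 7919 and 5361 normalized counts, so these GENCODE 44 overlaps were not all taken out of them. How much of these 4 genes was counted is not known.

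The genes that work with SR proteins were counted by the same call, to be read against the 25.9% cytoplasmic and 26.5% nuclear of all tested genes, or 16.2% and 38.3% at equal totals. Among tested protein-coding genes these shares were 35.6% and 28.4%, or 22.4% and 42.6% at equal totals. SR-related proteins, which carry an arginine and serine domain without being SR splicing factors in the narrow sense, had 5 cytoplasmic and 18 nuclear of 25 (2 and 20 at equal totals), with a median log2 fold change of -1.14. Their range ran from RNPS1, a part of the exon junction complex, at 1.85 to RSRC1 at -3.13. The list of kinases and carriers of SR proteins also held mRNA export factors. It had 3 cytoplasmic and 7 nuclear of 14 (2 and 9 at equal totals), with a median of -0.28. On the DESeq2 scaling all 7 nuclear calls were of kinases, and none of the 3 cytoplasmic calls was. The highest of this list was NXT1, the partner of NXF1, at 3.09, and the lowest the SR protein kinase SRPK2 at -2.91. NMD factors had 3 cytoplasmic and 6 nuclear of 10 (2 and 7 at equal totals) and a median of -0.42, from SMG8 at 1.80 to UPF3B at -1.87. Core hnRNPs, which bind pre-mRNA and often oppose SR proteins, had 15 cytoplasmic and 5 nuclear of 24 tested of 25 listed (10 and 9 at equal totals), with a median of 0.71, from PCBP1 at 2.55 to the neuronal splicing repressor PTBP2 at -3.24. The lists were not matched for gene length. The median total span was 13.9 kb for the SR genes and 21.3 kb for core hnRNPs. It was 31.9 kb for SR-related proteins, 34.9 kb for NMD factors and 35.8 kb for kinases and carriers. The part of length in the differences between lists was not tested.

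**Figure D5:**
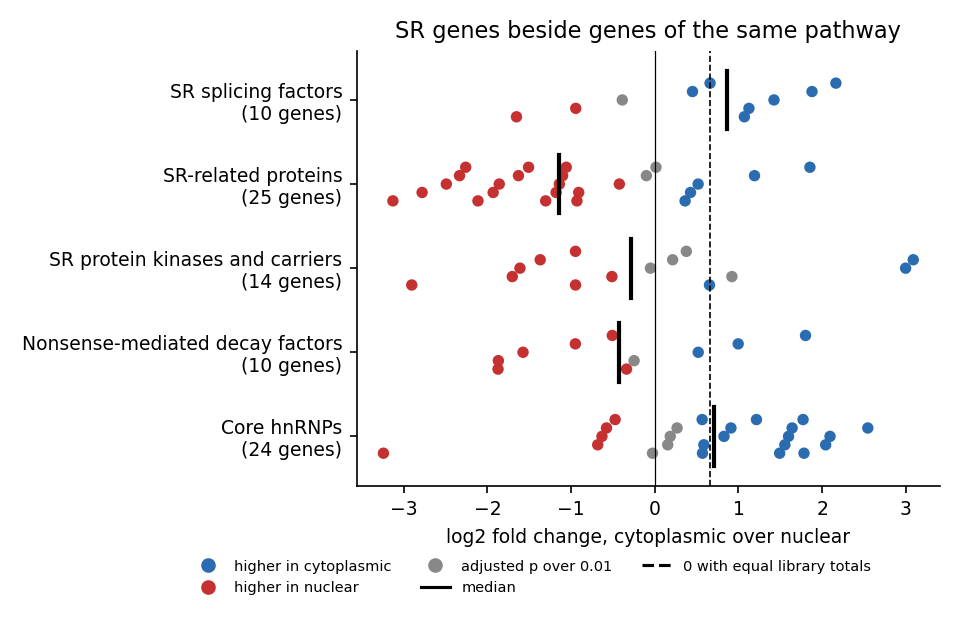
Log2 fold changes (horizontal axis) of the 10 SR genes and of 4 lists of related genes, 1 point per gene, with blue for a cytoplasmic and red for a nuclear call at a DESeq2 adjusted p of at most 0.01, grey for neither, and a vertical bar for the median. The dashed line is where 0 falls at equal totals (0.66). The median of the SR genes, 0.87, is the highest of the 5 and that of the SR-related proteins, -1.14, the lowest. The lists differ in gene length and were not matched for it.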

How the data were processed

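HEK293T nuclear and cytoplasmic RNA (2 libraries each) was sequenced from both ends for 100 nt. Per the labels and the study's methods, the authors aligned reads to hg38 with STAR, counted them per gene over exons and introns with featureCounts 2.0.2 on a GENCODE-based annotation without shared stretches and readthrough transcripts, and compared fractions with DESeq2. The deposited table gives per gene a mean normalized signal pooled over the 4 libraries, a log2 fold change with a standard error on the same log2 scale, the Wald score, and the p-value and adjusted p-value. These columns of the authors' DESeq2 comparison were used as given, since the table has no column for a single library. The planned edgeR test could not be run.

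From these columns fraction means, 95% intervals (normal, from the standard error) and differences between genes (taken as independent estimates) were computed with Python 3.11.15, pandas 2.3.3, numpy 2.4.6 and scipy 1.17.1. The arithmetic was tested on simulated data. Depth was read from the steps of the lowest means, which equal 1 count in 1 library. Genes were called at an adjusted p of at most 0.01, the study's threshold. Structure and coordinates came from GENCODE 44 on hg38, a later annotation than the authors' own, and 99.1% of the tested genes matched by identifier. Alternatives were other scalings, adjustments, a minimum mean of 50, a minimum log2 fold change of 0.5, a threshold of 0.05 and other measures of gene structure. The MANE span, the deciles of length and the omission of SRSF4 and SRSF11 were chosen after seeing the data. Named genes were the 10 members, SRSF8, SRSF12, 4 fraction markers and the highest and lowest gene of each list. SRSF6P2 was named after its value was seen. The members and lists were chosen with earlier results of these data known.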

Additional observations from a re-analysis of the deposited data

How the results depend on the processing

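No paired analysis was possible because the table pools all libraries, and leave-one-out fits, edgeR and a DESeq2 refit were not run for the same reason. The counts of 7 cytoplasmic and 2 nuclear SR genes stayed within 1.5 times under every alternative that was run, with 5 to 7 cytoplasmic and 2 or 3 nuclear. With equal library totals SRSF6 turned to -0.00197 and SRSF10 to -0.21, neither of them called, because that scaling moves every gene by the same amount. SRSF10 also lost its call under a Bonferroni adjustment and, with SRSF6, against a log2 fold change of 0.5. SRSF5 was called nuclear with equal totals, with centring on the protein-coding median (adjusted p = 0.00234) and at a threshold of 0.05. The median log2 fold change of the 10 genes was 0.20 with equal totals, and the mean weighted by precision was 0.67. Spearman's rho with total span was -0.50 over the 10 genes, -0.64 with SRSF8 and SRSF12 added and -0.24 without SRSF4 and SRSF11. For MANE span it was -0.38 over the 10 genes, -0.57 over 12 and 0.19 without SRSF4 and SRSF11. For intron length it was -0.45 over the 10 genes, -0.63 over 12 and -0.19 without SRSF4 and SRSF11. It was -0.65 and -0.62 for exonic length and -0.62 and -0.67 for the number of MANE introns, over 10 and 12 genes. The cause of these differences was not tested. Depth limits little here, since each SR gene held at least 1074 implied counts in every library, but 2 libraries per fraction limit the precision.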

Other observations

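At equal totals the 10 SR genes together took 1587 CPM of nuclear and 1591 CPM of cytoplasmic RNA. On the DESeq2 scaling their means summed to 28787 normalized counts in nuclear and 45675 in cytoplasmic RNA, 1.59-fold higher. The makeup of that sum differed. SRSF11 had the largest nuclear share of the 10, with 369 CPM, and 74.1 in the cytoplasmic fraction. SRSF1 had the largest cytoplasmic share, with 374 CPM, and 282 in the nuclear fraction. These sums have no error, since the table gives no value per library.

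Of the 12134 protein-coding genes, those with both an NMD and a retained-intron transcript (38.4%) had a median log2 fold change of 0.01 and a median span of 44.2 kb. SRSF7 had 6 NMD transcripts, a number that 5.72% of these genes reached.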
